A study of Mus musculus with 4 samples.

Results

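Chemokines and their receptors were followed in the heart RNA of mice that lack PIMT in cardiomyocytes. The genes were taken by symbol (Ccl, Cxcl, Cx3c, Ccr, Cxcr and Xc names). Of the 59 matching symbols among 23337 listed genes, the 38 with at least 10 reads in 1 or more libraries were kept, 25 ligands and 13 receptors. Of the other 21, 8 had no read in any library and 13 had between 1 and 6 reads in their highest library. The last genes inside that minimum were Ccl4, Xcl1, Ccl22 and Xcr1, with 10 to 12 reads in their highest library, and the first outside it were Cxcl11 and Ccr9, with 6.

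PIMT (gene Tgs1) is a coactivator-binding protein. The controls, called PIMTfl/fl, carried a PIMT gene flanked by loxP sites in all cells and no Cre, and csPIMT-/- mice carried the same floxed gene with a Cre transgene under the α-MyHC promoter. That promoter acts in cardiomyocytes, from late embryonic life, so the leukocytes, endothelium and fibroblasts of these hearts keep the gene. Hearts of untreated C57BL6/J mice were taken at 2 and at 6 months of age, RNA of 5 hearts of both sexes was pooled per group, and each of the 4 groups gave 1 library. There were no replicates, so each ratio between groups is given with a 95% Clopper-Pearson interval that covers counting error only, and no ratio has a replicate check. A pool also cannot separate more cells of a type from more RNA per cell.

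Chemokines are small secreted proteins that steer cells, above all leukocytes, along a gradient towards their source. They are named by the spacing of their first cysteines (CC, CXC, C and CX3C), and their receptors span the membrane and signal through inhibitory G proteins. Inflammatory ligands such as Ccl2 are induced in injured tissue and draw in monocytes, neutrophils or T cells, whereas homeostatic ligands such as Cxcl12 are made steadily and hold cells in place. In the heart, resident macrophages, fibroblasts and endothelial cells are the usual sources, and the balance of resident macrophages and incoming Ccr2+ monocytes is one of the features by which cardiac inflammation is described.

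The libraries held 29823073 to 40705783 reads, and a level is given as the normalized count, which is the read count divided by the size factor of the library. Tgs1 had normalized counts of 580 and 816 in the controls and 160 and 162 in csPIMT-/- (2 and 6 months). The 2-month control stood apart from the other libraries in ways that bear on immune and stromal genes. Its summed normalized count was 2554 for 3 atrial markers and 8.65 for 3 white fat markers, with Lep at 0. The 6-month control and the 2- and 6-month csPIMT-/- libraries had 44298, 124388 and 28049 for the atrial and 804, 3490 and 440 for the white fat markers. Xist was also lower in the 2-month control (805, against 6369 to 25639 in the others), and 4 of 4 Y-linked genes were higher. The 2-month csPIMT-/- library was the highest for both the atrial and the white fat sum. It also held lung epithelial and mesothelial RNA, with summed counts of 1292 and 2179 against at most 48.9 and 686 elsewhere. The mesothelial sum was mostly Upk3b (1341). Of its 4 markers 3 were more than 2-fold higher than in the 2-month control, while Wt1 was lower, at 0.291 (0.229 to 0.366). Of 2 brown fat markers, Ucp1 was at 1766 in this library against 8.65 to 93.2 elsewhere, and Cidea at 2561 against 1015 to 2600. The 5 cardiomyocyte markers did not differ more than 2-fold between genotypes at either age. The part of these differences in the chemokine values was not tested, and each csPIMT-/- library is therefore also set against the control of the other age.

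Macrophage, monocyte and neutrophil markers moved with the libraries as well. The summed count of 8 macrophage markers was 9309 in the 2-month control and 16762, 16601 and 23153 in the 6-month control and the 2- and 6-month csPIMT-/- libraries. Of those 8 markers, 5 were more than 2-fold higher in csPIMT-/- at 2 months, and 2 were higher and 1 lower at 6 months. Over all genes 17.3% were more than 2-fold higher and 22.5% lower at 2 months, and 16.9% and 24.9% at 6 months, the background for every marker count given here. The monocyte list summed to 2285 in the 2-month control and to 8388, 10599 and 14042 in the other libraries in the same order. That sum was mostly Lyz2, the lysozyme of monocytes and macrophages, at 2195, 8315, 10382 and 13849. Of the 3 monocyte markers compared between the controls, 1, Lyz2, was higher at 6 months. The 6- over 2-month ratios of the other 2 were 0.894 (0.601 to 1.32) for Ly6c2 and 0.704 (0.414 to 1.18) for Plac8. Over the 4 libraries in the same order the 4 neutrophil markers summed to 113, 60.7, 49.3 and 542, so that the 6-month csPIMT-/- library was the high one. The 6 T cell markers were low everywhere, with summed counts of 78.7 to 203, and thymus markers reached 46.8 at most.

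Some ligand genes that lie side by side in the genome differed in direction and others did not, and the 250 bases before the start of 5 genes are printed to set such neighbours, and the gene with the largest ratio, side by side. On chromosome 11 (GRCm38) Ccl2, Ccl7, Ccl11, Ccl12 and Ccl8 lie on the plus strand in this order within 79.6 kb, and Ccl12 and Ccl8 are the last pair. Ccl9 and Ccl6 are neighbours on the minus strand of the same chromosome, and Cxcl14, on chromosome 13, had the largest 6-month ratio among those of the 38 genes with at least 100 reads in 1 library. The sequences are those of RefSeq for GRCm38.p6, in which 27 of the 38 genes have a promoter entry. Capitals mark TATAAA (the core promoter box), TGANTCA (AP-1) and the interferon-stimulated response element (GAAA, then any 2 bases, then GAAA), each searched on both strands and in capitals also where matches overlap.
Ccl12, chr11:82101595-82101844, plus strand: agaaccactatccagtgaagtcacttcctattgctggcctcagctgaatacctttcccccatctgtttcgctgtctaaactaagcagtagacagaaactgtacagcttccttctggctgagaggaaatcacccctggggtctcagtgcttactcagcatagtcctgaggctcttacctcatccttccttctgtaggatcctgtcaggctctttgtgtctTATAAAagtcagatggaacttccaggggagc
Ccl8, chr11:82114935-82115184, plus strand: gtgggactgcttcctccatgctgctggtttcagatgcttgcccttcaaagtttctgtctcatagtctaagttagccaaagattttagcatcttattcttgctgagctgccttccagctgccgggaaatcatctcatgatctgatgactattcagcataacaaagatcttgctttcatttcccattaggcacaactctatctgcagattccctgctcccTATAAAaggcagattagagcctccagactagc
Ccl9, chr11:83578637-83578886, minus strand: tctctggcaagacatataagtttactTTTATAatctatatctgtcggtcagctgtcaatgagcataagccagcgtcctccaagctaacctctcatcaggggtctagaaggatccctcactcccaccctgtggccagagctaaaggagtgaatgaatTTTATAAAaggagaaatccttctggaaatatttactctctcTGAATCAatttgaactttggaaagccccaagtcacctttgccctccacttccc
Ccl6, chr11:83593088-83593337, minus strand: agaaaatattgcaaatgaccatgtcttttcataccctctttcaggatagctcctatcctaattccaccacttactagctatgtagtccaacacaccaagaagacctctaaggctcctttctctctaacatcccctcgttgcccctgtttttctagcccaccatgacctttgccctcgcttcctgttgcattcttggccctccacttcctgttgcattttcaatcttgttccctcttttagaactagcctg
Cxcl14, chr13:56296552-56296801, minus strand: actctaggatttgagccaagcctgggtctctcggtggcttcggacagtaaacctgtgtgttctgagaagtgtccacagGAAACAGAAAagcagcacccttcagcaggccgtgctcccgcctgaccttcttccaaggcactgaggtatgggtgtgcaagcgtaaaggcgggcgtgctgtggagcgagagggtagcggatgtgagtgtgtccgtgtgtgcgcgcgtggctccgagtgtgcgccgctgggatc
Ccl12 and Ccl8 each hold 1 TATAAA, at positions -31 to -26 and -32 to -27 from the start. The printed bases of Ccl9 hold TATAAA on both strands and TGANTCA, those of Ccl6 hold none of the motifs, and those of Cxcl14 hold the interferon-stimulated response element. TATAAA was found in 9 of the 27 entries, against 12.4% of 32851 promoters of the same length. The interferon-stimulated response element was found in 3 (Ccl19, Cxcl10 and Cxcl14), against 2.98% of all, and TGANTCA in 2 (Ccl9 and Cxcl10), against 6.75%. The κB motif (GGG, then any 5 bases, then CC), not marked in capitals, was found in 14, against 45.8% of all promoters. These matches describe the letters in the window and are not binding sites.

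At 2 months, 33 of the 38 genes could be compared (at least 10 reads in 1 of the 2 libraries). Of them 18 were more than 2-fold higher in csPIMT-/-, where 17.3% of all genes were, and 1 was more than 2-fold lower, where 22.5% of all genes were. The median log2 ratio of the 33 was 1.30, against -0.00 over all genes. Of the 33, 10 had the minimum of reads in the csPIMT-/- library alone and so had to be higher there. Of the 23 with the minimum in both libraries, 9 were higher and 1 was lower, and no share over all genes was taken with that minimum. Against the 6-month control instead, 9 of 35 genes were higher in the same csPIMT-/- library, where 14.8% of all genes were, and 4 were lower, where 25.1% were, so that the count depends on which control is used.

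At 6 months the ratios went both ways. Of 36 genes compared, 16 were more than 2-fold higher in csPIMT-/-, where 16.9% of all genes were, and 9 were more than 2-fold lower, where 24.9% were. The median log2 ratio was 0.50, against 0.00 over all genes. The minimum was met by the csPIMT-/- library alone in 4 of the 36 and by the control alone in 5. Of the 27 that met it in both, 13 were higher and 5 lower, again without a share over all genes. Between the controls themselves, 19 of 32 genes were more than 2-fold higher at 6 than at 2 months, where 9.01% of all genes were, and none was lower, where 4.65% were. Age, the sex balance and the tissue of these pools cannot be told apart in that last comparison.

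**Figure D1:**
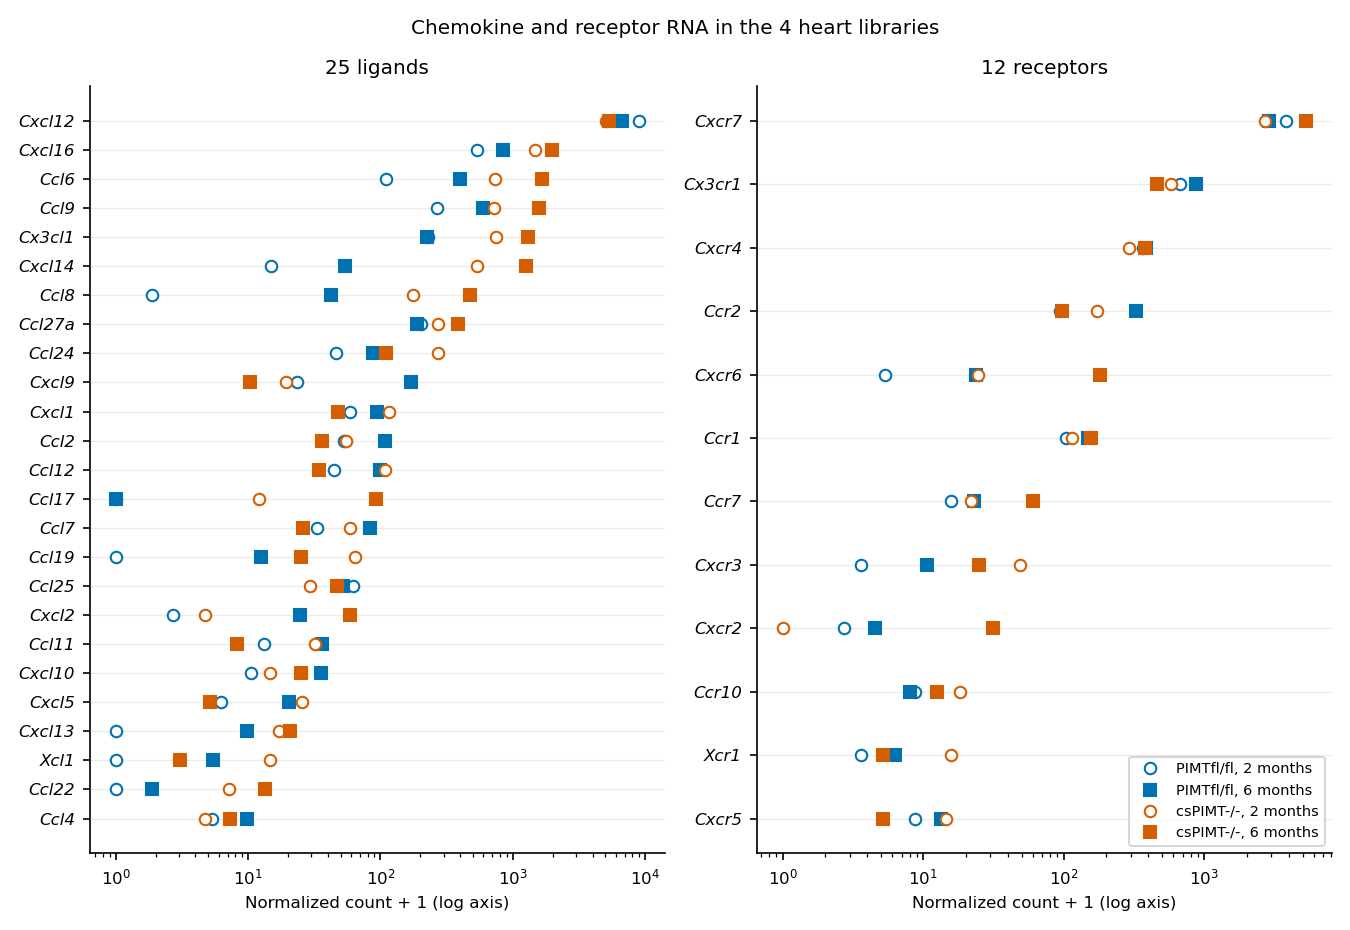
Normalized counts plus 1 on a log axis for the 25 ligands (left) and 12 receptors (right), 1 point per library, with the controls in blue, csPIMT-/- in orange, 2 months as open circles and 6 months as filled squares. Counts are not divided by transcript length, so rows compare libraries, not genes. For Cxcl14, Cx3cl1 and Ccl8 both orange points lie right of both blue points.

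Over both ages 10 of the 31 genes compared at each age were more than 2-fold higher at 2 and at 6 months, where 7.73% of all genes were. They were Ccl19, Ccl6, Ccl8, Ccl9, Cx3cl1, Cxcl13, Cxcl14, Cxcl16, Cxcr3 and Cxcr6. Of these, Ccl19, Ccl8, Cxcl13, Cxcr3 and Cxcr6 met the 2-month minimum of reads through the csPIMT-/- library alone and so had to be higher there. Among the 21 genes with the minimum in all 4 libraries, the other 5 were higher at both ages, where 6.95% of all such genes were. With a GC trend subtracted Ccl19 and Cxcr3 were within 2-fold at 6 months, at log2 ratios of 0.35 and 0.72. None was more than 2-fold lower at both ages, where 16.0% of all genes were. In 15 of the 38 genes both csPIMT-/- libraries lay above both controls (34.6% of all genes), and in 4 they lay below (35.1%). A stricter order, with both csPIMT-/- libraries more than 2-fold above either control, held for 7 of the 38, where 5.36% of all genes did so. These 7 were Cxcl14, Cx3cl1, Ccl8, Ccl17, Ccl19, Ccl22 and Cxcr3. Ccl17 and Ccl22 are among the 38 only through their csPIMT-/- reads. Of the 21 genes with the minimum in all 4 libraries, Cx3cl1 and Cxcl14 met this order, where 4.51% of all such genes did. No gene of the 38 had both csPIMT-/- libraries more than 2-fold below both controls, where 12.5% of all genes did.

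The fit of genotype and age over the 4 libraries (limma, 1 residual degree of freedom, 14878 genes) called 8 of the 33 genes tested higher at an adjusted p below 0.05, where 12.2% of all genes were called. It called none lower, where 17.9% of all genes were called. At an unadjusted p under 0.05, 10 were higher, where 21.1% of all genes were, and 1, Cxcl12, was lower, where 24.5% were. edgeR called the same number, 8 higher and none lower, where it called 1630 of the 14878 genes higher and 2520 lower. DESeq2 called 9 higher and none lower, where it called 2182 of the 14878 genes higher and 2988 lower. The 8 were Cxcl14, Ccl6, Cx3cl1, Ccl8, Cxcl16, Ccl9, Ccl17 and Cxcr6, and of these Ccl17 met the minimum of reads in the csPIMT-/- libraries alone. The spread in this fit is the departure from additive effects, not a spread between replicates. All 8 calls were lost when a GC trend was subtracted or no mean trend of the variance was fitted, settings in which no gene of the whole table was called.

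Among the CXC ligands with reads in every library, the ratio of Cxcl14 was the largest at each age. Cxcl14, a CXC ligand of epithelia and stroma with weak affinity for the classical receptors, had normalized counts of 13.8 and 52.8 in the 2- and 6-month controls and 539 and 1258 in csPIMT-/-. The ratio was 38.9 (95% interval 23.7 to 68.7) at 2 months and 23.8 (18.4 to 31.4) at 6 months. Both csPIMT-/- libraries lay above both controls, and the lower of the 2 ratios across ages, of the 2-month csPIMT-/- over the 6-month control, was 10.2 (7.78 to 13.6). Cxcl14 rose in the limma fit by 4.88 on the log2 scale (SE 0.412, adjusted p 0.0123).

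Cx3cl1, or fractalkine, is made as a membrane-bound adhesion molecule of endothelium and released by cleavage, and Cx3cr1 is its receptor on monocytes and resident macrophages. The ligand had normalized counts of 226 and 223 in the controls, nearly equal at both ages, and 747 and 1297 in csPIMT-/-. Its ratio was 3.31 (2.86 to 3.84) at 2 months and 5.83 (5.09 to 6.70) at 6 months, and it rose in the limma fit by 2.14 on the log2 scale (SE 0.326, adjusted p 0.0140). Among the 8 called genes its ratios changed least with the choice of control, being 3.36 (2.90 to 3.90) and 5.74 (5.02 to 6.59) with the control of the other age. Cx3cr1 went the other way, with counts of 670 and 876 in the controls and 577 and 463 in csPIMT-/-. Its ratios were 0.862 (0.766 to 0.968) and 0.529 (0.472 to 0.592), and the limma difference of -0.56 on the log2 scale did not pass (adjusted p 0.210). So the ligand was higher and its receptor lower in both csPIMT-/- libraries than in either control.

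Cxcl16 and Cxcr6 are the second exclusive pair. Cxcl16, a membrane-bound scavenger of oxidized lipoprotein on macrophages and endothelium, had counts of 535 and 838 in the controls and 1460 and 1979 in csPIMT-/-. The ratios were 2.73 (2.47 to 3.01) and 2.36 (2.18 to 2.55), with a limma rise of 1.35 on the log2 scale (SE 0.238, adjusted p 0.0176). Its receptor Cxcr6, found on T cells, NK cells and other innate lymphocytes, had counts of 4.33 and 22.9 in the controls and 23.4 and 180 in csPIMT-/-, or 5, 26, 19 and 173 reads. The Cxcr6 ratio was 5.41 (1.96 to 18.6) at 2 months and 7.87 (5.19 to 12.4) at 6 months, and the limma rise was 2.57 (SE 0.652, adjusted p 0.0371). Set against the 6-month control, Cxcr6 in the 2-month csPIMT-/- library had a ratio of 1.02 (0.536 to 1.92), an interval that includes 1. Of the T cell markers, 1 of 5 compared was more than 2-fold higher at 2 months and 5 of 6 at 6 months, the age at which Cxcr6 had its high library. Cd3e, a chain of the T cell receptor complex, had 1 read in each control and 6 and 13 in csPIMT-/-, under the minimum at 2 months. The chains Cd3d and Cd3g had ratios of 0.907 (0.298 to 2.56) and 1.14 (0.552 to 2.32) at 2 months. At 6 months these were 3.25 (0.964 to 14.0) and 2.63 (1.14 to 6.56), while Cd4 was at 0.650 (0.475 to 0.882) of the control. The part of T cells in the Cxcr6 values was not tested. The exons of Cxcl16 overlap those of Zmynd15 on the other strand, with 19.0% of its 50-base windows shared. Zmynd15 itself had counts of 60.6, 135, 189 and 233 in the 2- and 6-month controls and the 2- and 6-month csPIMT-/- libraries, and the strand setting of the counting is not given in the sources used here.

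Cxcl12, which holds Cxcr4+ progenitors and guides vessel growth, had the highest level per kilobase of transcript among the ligands in 3 of the 4 libraries, at 902 to 1590 normalized counts per kb. In the 6-month csPIMT-/- library Ccl6 was higher, at 1153 per kb against 938. Its counts were 8946 and 6660 in the controls and 5075 and 5281 in csPIMT-/-, with ratios of 0.567 (0.547 to 0.588) and 0.793 (0.765 to 0.822). Both csPIMT-/- libraries lay below both controls, but the limma difference of -0.57 on the log2 scale missed the threshold (adjusted p 0.105). The summed count of the 4 markers of blood endothelium, a main source of Cxcl12, was 48159 and 34551 in the controls and 27945 and 31931 in csPIMT-/-, with 2 of them more than 2-fold lower at 2 months and none at 6 months. The 4 fibroblast markers summed to 70246 and 44134 in the controls and 59508 and 72755 in csPIMT-/-. The part of either cell type in the Cxcl12 values was not tested. Cxcr4, the signalling receptor, had counts of 292 to 382 with overlapping groups, and ratios of 0.804 (0.683 to 0.945) and 0.989 (0.858 to 1.14). Cxcr7, listed today as Ackr3, takes up Cxcl12 without G protein signalling and was the most abundant receptor per kilobase, at 883 to 1721 normalized counts per kb. It had counts of 3791 and 2893 in the controls and 2705 and 5276 in csPIMT-/-, so its ratio was below 1 at 2 months (0.714, 0.678 to 0.751) and above 1 at 6 months (1.82, 1.74 to 1.91).

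Of 8 inflammatory CC ligands compared at 2 months, 6 were more than 2-fold higher and none lower, where 17.3% and 22.5% of all genes were. Of 11 at 6 months 5 were higher and 4 lower, where 16.9% and 24.9% of all genes were. Among the 11, Ccl17 and Ccl22 met the minimum of reads through csPIMT-/- alone, and Ccl4 and Ccl11 through the control alone. Ccl6 and Ccl9, macrophage ligands that act mainly through Ccr1, lie beside each other and were higher at each age. Ccl6 had counts of 108 and 397 in the controls and 734 and 1660 in csPIMT-/-, and ratios of 6.78 (5.58 to 8.29) and 4.19 (3.77 to 4.66). Ccl9 had counts of 267 and 589 in the controls and 724 and 1573 in csPIMT-/-, and ratios of 2.72 (2.36 to 3.13) and 2.67 (2.44 to 2.93). In the limma fit Ccl6 rose by 2.42 (SE 0.320, adjusted p 0.0124) and Ccl9 by 1.44 (SE 0.259, adjusted p 0.0183) on the log2 scale. Set against the 6-month control, the 2-month csPIMT-/- library was 1.85-fold (1.63 to 2.10) higher for Ccl6 and 1.23-fold (1.10 to 1.37) higher for Ccl9. Ccr1, their receptor on monocytes and neutrophils, had counts of 103 to 154, with overlapping groups and ratios of 1.10 (0.830 to 1.46) and 1.05 (0.835 to 1.32).

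Ccl8, a monocyte attractant made by resident macrophages, had 1 and 47 reads in the controls and 143 and 454 in csPIMT-/-. With a single read in the 2-month control its ratio there was 204, with an interval from 36.0 to 8103, and the 6-month ratio of 11.4 (8.45 to 15.8) is the better measured. Ccl8 differed between the controls as well, 47.8-fold (8.17 to 1926). The 2-month csPIMT-/- library was 4.27-fold (3.05 to 6.06) above the 6-month control, and the limma rise was 5.04 on the log2 scale (SE 0.853, adjusted p 0.0165).

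Ccl2, the main ligand of Ccr2 and the best known attractant of inflammatory monocytes, did not follow Ccl8. It had counts of 51.9 and 107 in the controls and 54.2 and 35.4 in csPIMT-/-, with a ratio of 1.04 (0.692 to 1.57) at 2 months and 0.330 (0.218 to 0.486) at 6 months. Ccl12, the mouse ligand most like Ccl2, had counts of 43.3 and 97.6 in the controls and 107 and 33.3 in csPIMT-/-. Its ratio was 2.48 (1.73 to 3.58) at 2 months and 0.341 (0.223 to 0.509) at 6 months. The 2 genes between them, Ccl7, a Ccr2 and Ccr1 ligand, and Ccl11, the eosinophil attractant eotaxin, stayed under 100 reads in every library and were singled out for their position after their values were seen. Ccl7 had counts of 32.0 and 81.8 in the controls and 57.9 and 25.0 in csPIMT-/-, and Ccl11 had 12.1 and 35.2, then 30.8 and 7.28. At 6 months the ratios were 0.305 (0.186 to 0.482) for Ccl7 and 0.207 (0.0782 to 0.467) for Ccl11.

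In this run of neighbours the first 4 genes thus had their lowest level of all 4 libraries in 6-month csPIMT-/- hearts, whereas Ccl8 had its highest level there. The starts of Ccl12 and Ccl8 lie 66.3 and 79.6 kb from that of Ccl2, and the printed bases of both carry TATAAA just before the start. Over all 38 genes, the 6-month csPIMT-/- library was the highest of the 4 for 16 (28.1% of all genes) and the lowest for 9 (23.6%). The 9 were Ccl2, Ccl7, Ccl11, Ccl12, Cxcl1, Cxcl5, Cxcl9, Cxcr5 and Cx3cr1. The lower ratios at 6 months also rest on the control, which for Ccl2, Ccl7, Ccl11, Ccr2 and Cxcl9 was the highest library. Against the 2-month control the 6-month csPIMT-/- ratios were 0.681 (0.434 to 1.05) for Ccl2, 0.769 (0.478 to 1.22) for Ccl12, 0.780 (0.446 to 1.34) for Ccl7 and 0.601 (0.205 to 1.59) for Ccl11, with intervals that all reach past 1. With a GC trend subtracted the 6-month log2 ratio of Ccl2 went from -1.59 to -0.63 and that of Ccl12 from -1.54 to -0.24, both within 2-fold, while that of Ccl8 was 3.85.

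**Figure D2:**
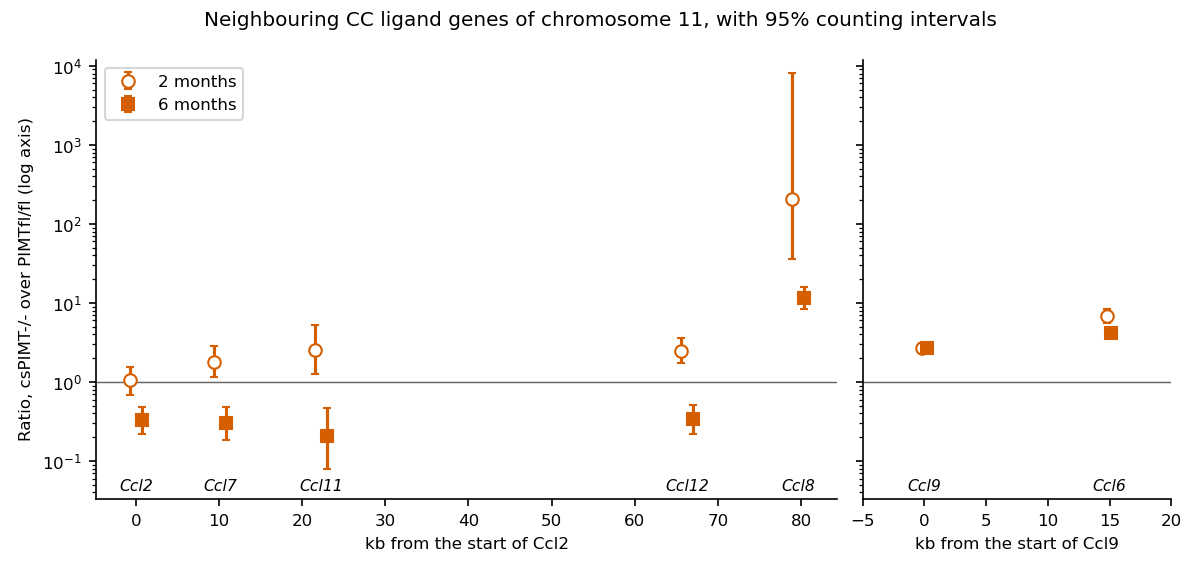
Ratio of csPIMT-/- over PIMTfl/fl (log axis) with 95% counting intervals against the distance in kb from the start of Ccl2 (left) or Ccl9 (right), open circles for 2 months and filled squares for 6 months. Ccl2, Ccl7, Ccl11 and Ccl12 lie under 1 at 6 months with ratios of 0.207 to 0.341, and Ccl8, at the end of the same run, lies at 11.4.

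Ccr2, the receptor of Ccl2, was lower at 6 months, like its ligand, while Ccr1 was not. Ccr2, which marks monocytes that enter the heart from blood, had counts of 93.5 and 326 in the controls and 170 and 96.8 in csPIMT-/-, so that the 6-month control was the high library. Its ratio was 1.82 (1.41 to 2.36) at 2 months and 0.297 (0.234 to 0.373) at 6 months. The lower 6-month level rests on the control of that age, since against the 2-month control the ratio was 1.04 (0.776 to 1.38). It was also within 2-fold with a GC trend subtracted, where the 6-month log2 ratio of Ccr2 went from -1.75 to -0.18 and that of Ccr1 from 0.069 to 1.66. At 6 months the summed macrophage and monocyte markers were higher in csPIMT-/-, at 23153 and 14042 against 16762 and 8388. The monocyte sum was mostly Lyz2 (13849 against 8315), and the part of these markers in the receptor value was not tested. Ccl4, a ligand of macrophages and T cells, had 3 to 10 reads per library.

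Ccl24, an eosinophil attractant of alternatively activated macrophages, had counts of 45.0 and 86.2 in the controls and 270 and 108 in csPIMT-/-. It was 6.00-fold (4.42 to 8.28) higher at 2 months, while the 6-month interval of 0.943 to 1.67 around a ratio of 1.26 included 1. The 4 mast cell markers Cpa3, Mcpt4, Cma1 and Tpsb2 summed to 211 and 286 in the controls and 539 and 123 in csPIMT-/-. At 2 months 3 of them were more than 2-fold higher and 1, Cpa3, was lower, at 0.164 (0.0631 to 0.358) of the control. At 6 months 3 were lower. The sum was highest in the same library as Ccl24, and its part in the Ccl24 values was not tested. Ccl17, a Ccr4 ligand of dendritic cells, had no read in either control and 9 and 88 reads in csPIMT-/-. Against a floor of 3 reads in the 6-month control it was 34.7-fold higher at 6 months (lower 95% limit of the ratio of the reads themselves 27.6). Ccl17 rose in the limma fit by 5.08 on the log2 scale (SE 1.18, adjusted p 0.0303), a size that depends on the pseudocount. Ccl22, its neighbour on chromosome 8 and the other Ccr4 ligand, had 0 and 1 reads in the controls and 5 and 12 in csPIMT-/-. Cx3cl1 lies between Ccl17 and Ccl22. These 3 neighbouring ligand genes were each higher in both csPIMT-/- libraries than in either control, where 34.6% of all genes were. Ccl17 and Ccl22 met the minimum of reads through the 6-month csPIMT-/- library alone, so the selection favoured that order for both. Ccl17 and Ccl22 were singled out after their values were seen. Of the dendritic cell markers, 3 of 4 compared at 2 months and 3 of 5 at 6 months were more than 2-fold higher. Among them were Itgax (7.06-fold and 4.58-fold) and Flt3 (6.72-fold and 14.0-fold). Zbtb46 had ratios below 1, of 0.687 (0.609 to 0.773) and 0.906 (0.820 to 0.999). The whole list summed to 787 and 936 in the controls and 748 and 1233 in csPIMT-/-. That sum was mostly Zbtb46, at 743 and 821, then 510 and 744. The part of the list in the Ccl17 values was not tested.

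Neither interferon-induced ligand was more than 2-fold above the control of its own age. Cxcl9, which draws Cxcr3+ T cells and is induced by interferon γ, had counts of 22.5 and 170 in the controls and 18.5 and 9.36 in csPIMT-/-, so the 6-month control was far above the other libraries. The ratio was 0.822 (0.405 to 1.61) at 2 months and 0.0552 (0.0248 to 0.107) at 6 months, the lowest of the 36 genes at that age. Even against the 2-month control the 6-month csPIMT-/- ratio was 0.416 (0.172 to 0.917). Cxcl10, the companion ligand, stayed at 11 to 39 reads per library, with ratios of 1.42 (0.560 to 3.62) and 0.698 (0.398 to 1.20). With the control of the other age the Cxcl10 ratios were 0.395 (0.183 to 0.787) for the 2-month and 2.51 (1.18 to 5.71) for the 6-month csPIMT-/- library, so that its direction depends on the control. The exons of Cxcl10 overlap those of the abundant gene Art3 on the other strand. Cxcr3, the receptor of both, had 3 and 11 reads in the controls and 39 and 23 in csPIMT-/-. Its ratio was 18.5 (5.89 to 93.7) at 2 months and 2.47 (1.16 to 5.62) at 6 months, and the limma value of 2.51 on the log2 scale did not pass (adjusted p 0.0949). Ifng itself had no read in any library.

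Neutrophil-attracting CXC ligands with the Glu-Leu-Arg motif were low and did not move together. Cxcl1 had counts of 58.0 and 93.2 in the controls and 116 and 46.8 in csPIMT-/-, with a ratio of 2.00 (1.45 to 2.78) at 2 months and 0.502 (0.346 to 0.718) at 6 months. Cxcl5, which had 4 to 22 reads per library and was singled out for its reversal, had ratios of 4.75 (1.84 to 14.5) and 0.215 (0.0539 to 0.633). It met the minimum of reads through csPIMT-/- alone at 2 months and through the control alone at 6 months. Cxcl2, by contrast, had 2 and 27 reads in the controls and 3 and 56 in csPIMT-/-, and a 6-month ratio of 2.45 (1.52 to 4.04). Cxcr2, the shared receptor of the 3 ligands on neutrophils, had 2 and 4 reads in the controls and 0 and 29 in csPIMT-/-, and its 6-month ratio was 8.58 (3.01 to 33.6). The neutrophil markers S100a8 and S100a9 were higher in the same library, 10.2-fold and 9.20-fold at 6 months, as were all 3 of the list with enough reads, and their part in the Cxcr2 value was not tested.

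Homeostatic CC ligands were mixed. Ccl27a, a skin-type ligand, had counts of 201 and 187 in the controls and 270 and 385 in csPIMT-/-, with ratios of 1.35 (1.11 to 1.62) and 2.05 (1.73 to 2.44). With a GC trend subtracted its 6-month log2 ratio went from 1.04 to 0.32. Its value is uncertain, because 69.2% of its 50-base windows occur in other genes and its exons overlap Il11ra1 on the other strand, which itself had counts of 2057, 3023, 6919 and 9478 in the 2- and 6-month controls and the 2- and 6-month csPIMT-/- libraries. Ccl19, a Ccr7 ligand of lymphoid stroma, had 0 and 13 reads in the controls and 51 and 23 in csPIMT-/-, with pseudogene copies that share 59.1% of its windows. Against the floor of 3 reads Ccl19 was 24.2-fold higher at 2 months (lower 95% limit of the reads themselves 19.0). At 6 months its ratio was 2.09 (1.02 to 4.50). Cxcl13, the B cell attractant, had 0 and 10 reads in the controls and 13 and 19 in csPIMT-/-. By the same floor it was 6.17-fold higher at 2 months (lower limit 4.34), and its 6-month ratio was 2.25 (0.994 to 5.41). Ccl25, a thymus and gut ligand whose exons overlap Elavl1, was the single gene lower at 2 months, with a ratio of 0.468 (0.279 to 0.759), but at 6 months its ratio was 0.897 (0.592 to 1.35).

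Receptors of lymphoid cells and the C family stayed near the limit of these libraries. Ccr7, which takes dendritic and T cells to lymph nodes and binds Ccl19, had 17 and 25 reads in the controls and 17 and 57 in csPIMT-/-. The 6-month csPIMT-/- library was thus the high one, with ratios of 1.42 (0.684 to 2.97) at 2 months and 2.70 (1.66 to 4.51) at 6 months. Cxcr5, the Cxcl13 receptor of B cells, had 4 to 14 reads and Ccr10, a receptor of Ccl27a, 8 to 14, and the interval of each ratio included 1 at both ages. Xcl1, of the C family, and its receptor Xcr1 on cross-presenting dendritic cells had their highest counts in the 2-month csPIMT-/- library, with 11 and 12 reads, and at most 6 elsewhere. Both met the minimum of reads through the 2-month csPIMT-/- library alone and so had to be higher there. At 2 months Xcl1 was 5.22-fold higher by the floor of 3 reads (lower limit 3.58) and Xcr1 5.70-fold (1.54 to 31.5). At 6 months neither had 10 reads in either library.

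**Figure D3:**
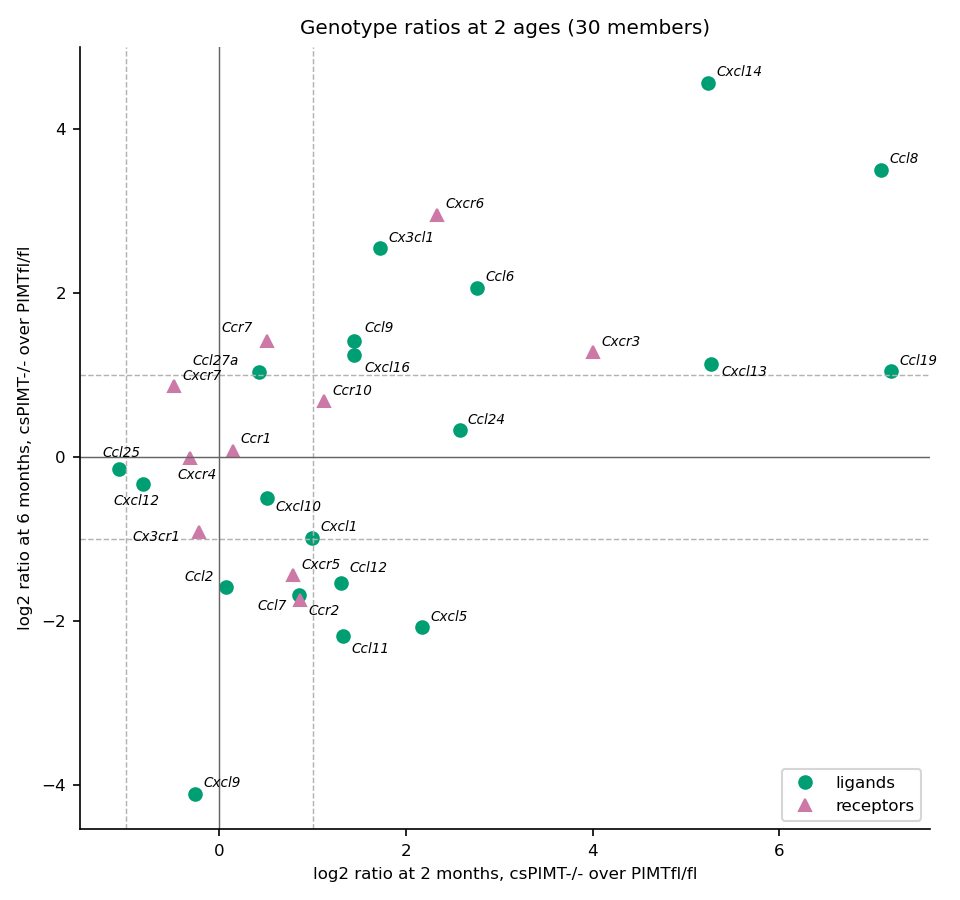
The log2 ratio of csPIMT-/- over PIMTfl/fl at 2 months (x axis) and at 6 months (y axis) for 30 genes with at least 10 reads in 1 library at each age, ligands as circles and receptors as triangles, with dashed lines at 2-fold and a pseudocount of 0.5 reads, on which the places of Ccl19 and Cxcl13, at 0 reads in the 2-month control, depend. The 10 genes in the upper right are more than 2-fold higher at both ages, Ccl11, Ccl12 and Cxcl5 lie beyond 2-fold in the lower right, and none lies in the lower left beyond both lines.

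Of the 31 genes, 4 were more than 2-fold higher at 2 months and more than 2-fold lower at 6 months, where 1.10% of all genes were. Among them were Ccl11, Ccl12 and Cxcl5. Of these, Cxcl5 met the minimum of reads through csPIMT-/- alone at 2 months and through the control alone at 6 months. The direction of its reads was thus set by the minimum at both ages. Ccl11 met the 6-month minimum through the control alone, which set the direction of its reads at that age. None of the 31 had the opposite order, where 0.704% of all genes had it. The difference between the ages has 1 library in each group and was not tested, and it did not hold for these 3 with the control of the other age. Against that control the 2- and 6-month ratios were 1.10 (0.820 to 1.47) and 0.769 (0.478 to 1.22) for Ccl12 and 0.876 (0.509 to 1.48) and 0.601 (0.205 to 1.59) for Ccl11. The 2-month csPIMT-/- ratio of Cxcl5 to the 6-month control was 1.27 (0.660 to 2.45), and its 6-month csPIMT-/- and 2-month control libraries both had under 10 reads and were not compared.

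**Figure D4:**
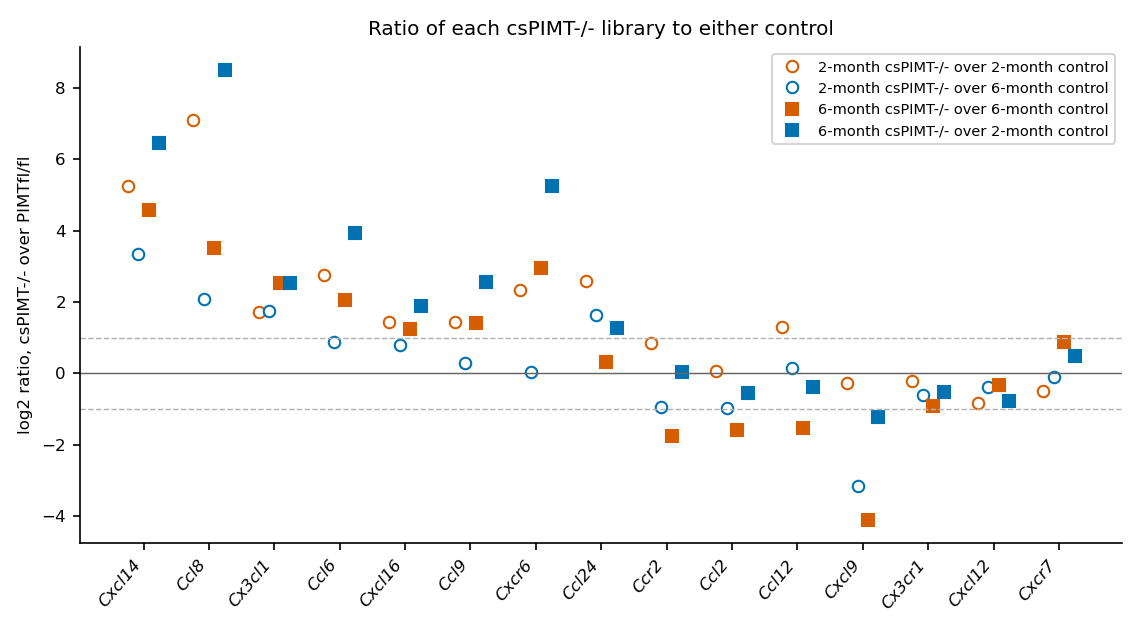
The log2 ratio of each csPIMT-/- library to each control for 15 named genes, open symbols for the 2-month and filled symbols for the 6-month csPIMT-/- library, orange against the control of the same age and blue against the control of the other age, with dashed lines at 2-fold and a pseudocount of 0.5 reads. Cxcl14, Ccl8 and Cx3cl1 have all 4 points above the upper line, whereas the points of Ccr2 fall on both sides of 0.

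Genes around the chemokine system that the symbol rule does not cover were read from lists of other ligands, atypical receptors, signalling proteins, inducers and adhesion molecules. Their counts stand against 17.3% of all genes more than 2-fold higher and 22.5% lower at 2 months, and 16.9% and 24.9% at 6 months. Their ratios are to the control of the same age only. Of 11 such ligands and receptors compared at 2 months, 4 were more than 2-fold higher and none lower, and of 10 at 6 months 6 were higher and 1 lower. Rarres2, the chemerin precursor, was 3.63-fold and 3.32-fold higher, and its receptor Cmklr1 1.77-fold and 3.74-fold. Mif, a cytokine that binds Cxcr2, Cxcr4 and Cxcr7, was 2.33-fold and 2.94-fold higher. Dpp4, the membrane peptidase that trims and inactivates Cxcl12 and other chemokines, was at 0.518 and 0.303 of the control. The limma fit called Rarres2 (adjusted p 0.0123), Mif (0.0140) and Cmklr1 (0.0311) higher and Dpp4 (0.0457) lower.

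Downstream of the receptors, 5 of 25 signalling genes were more than 2-fold higher and 3 lower at 2 months, and 3 were higher and 3 lower at 6 months, which lies near or under the shares over all genes. Gnai3, an inhibitory G protein subunit through which the receptors signal, had ratios of 0.271 and 0.276, and Jak2, a kinase linked to cytokine receptors, 0.274 and 0.255, both called lower by limma (adjusted p 0.0123 for each). Gnai2, the subunit that leukocytes use most, had ratios of 1.07 and 2.11. Of 13 adhesion genes compared at 2 months 6 were higher and 2 lower, and of 12 at 6 months 4 were higher and 1 lower. Higher at both ages were Icam1, the endothelial ligand of leukocyte integrins (3.36-fold and 2.84-fold), and Selp, or P-selectin (5.18-fold and 4.27-fold). So were the Selp ligand Selplg (4.14-fold and 2.01-fold) and the integrin chain Itgb2 (3.50-fold and 2.30-fold). The 6-month control was itself above the 2-month control for Selplg (2.80-fold), Selp (2.51-fold), Itgb2 (2.45-fold) and Icam1 (1.30-fold). The size of their 2-month ratios thus depends on the control.

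Inducers of chemokines were read from a list of 23 cytokines and transcription factors, of which 15 could be compared at 2 months and 16 at 6 months. At 2 months 5 were more than 2-fold higher and none lower, and at 6 months 3 were higher, a share near the 16.9% of all genes, and 1 was lower. Irf7, the interferon regulatory factor, was higher at both ages (5.41-fold and 2.31-fold). Between the controls Irf7 was 3.27-fold (2.90 to 3.68) higher at 6 than at 2 months, so the size of its 2-month ratio depends on the control. Tnf had counts of 26.0 and 83.6 in the controls and 99.9 and 42.7 in csPIMT-/-, and so was 3.85-fold higher at 2 months and at 0.511 of the control at 6 months.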

How the data were processed

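The 4 libraries, 1 per group, were directional TruSeq mRNA libraries. The authors ran quality filters, STAR alignment to mm10, HTSeq 0.6.1p1 gene counts on a UCSC annotation, and DESeq2 normalization. The deposited values are counts divided by a size factor, a signal from which whole reads were recovered through the value of 1 read (100.0% whole within 1e-06 reads). The strand setting of the counting is not given in the sources used here. On the recovered reads edgeR called 1630 genes higher and 2520 lower of 14878.

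Ratios used the deposited scale, without replicates and without a test, with 95% Clopper-Pearson intervals. A gene needed 10 reads in 1 of the libraries compared, and log2 ratios used a pseudocount of 0.5 reads. A fold against 0 reads used a floor of 3 reads and is not a confidence limit. With genotype and age as terms, limma 3.58.1 was fitted on log2 of TMM-scaled reads plus 1, with a mean trend of the variance, 1 residual degree of freedom (prior 4.51) and Benjamini-Hochberg adjustment over all genes with at least 10 scaled reads in 2 libraries and 15 in all. edgeR 4.0.16 and DESeq2 1.42.0 on the recovered reads, other scalings, controls, filters and a GC trend were alternatives, and the pairwise median of ratios was added after seeing the data. Scripts were tested on simulated data. GENCODE M21 (GRCm38) gave positions, lengths and GC content. Motifs were searched in the 250 bases before the start, leaving out the transcribed bases of each entry.

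The genes and lists were chosen with earlier results of these data known. Values are given for genes with at least 100 reads in 1 library or past 2-fold in 1 direction at both ages, and from other lists for genes that meet both. Genes outside this rule (Ccl4, Ccl7, Ccl11, Ccl17, Ccl22, Ccl25, Ccr7, Ccr10, Cxcl2, Cxcl5, Cxcl10, Cxcr2, Cxcr5, Xcl1, Xcr1, Cmklr1, Gnai2, Tnf and markers) were named after their values were seen. The values of 1 of the 38 genes are not reported here, and it remains in the counts.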

Additional observations from a re-analysis of the deposited data

Results flagged for a closer look

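Ligands and receptors with opposite directions at the ages were picked out because the csPIMT-/- library lay more than 2-fold above the control at 2 months and more than 2-fold below it at 6 months. With 1 library per group the difference between the ages was not tested. The log2 ratio of Ccl11 was 1.325 at 2 months and -2.191 at 6 months. That of Ccl12 was 1.304 and -1.536, and that of Cxcl5 was 2.168 and -2.080. Cxcl5 met the minimum of reads through csPIMT-/- alone at 2 months and through the control alone at 6 months. Ccl11 met it through the control alone at 6 months.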

How the results depend on the processing

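No paired analysis was possible because each group has 1 library and the labels give no replicate numbers. Shares over all genes in the same setting are in brackets. At 2 months 18 of 33 genes were higher (17.3%), 1 was lower (22.5%) and the median log2 ratio was 1.30. With the control of the other age 9 of 35 were higher (14.8%), 4 were lower (25.1%) and the median was 0.14. With both controls summed 2 of 35 genes were lower (24.3%) and the median was 0.57. Of 15 genes with at least 100 reads, 8 were higher (13.9%) and 0 lower (22.4%). With a GC trend subtracted 0 genes were lower (11.5%), as with the whole interval beyond 2-fold (15.8%). Without a minimum 2 of 38 were lower (24.3%). At 6 months 16 of 36 genes were higher (16.9%), 9 were lower (24.9%) and the median was 0.50. The control of the other age gave 1 of 33 lower (21.4%) and a median of 1.26. The GC trend gave 3 of 36 lower, where the share over all genes also fell, to 13.2%. The whole interval beyond 2-fold gave 10 higher (11.1%) and 5 lower (18.7%), and at least 100 reads gave 8 (14.8%) and 5 (24.6%). With the control of the other age the log2 ratio of Ccr2 turned to 0.051 at 6 months. The cause of these changes was not tested. In limma the 8 higher genes (12.2%) became 0 without a mean trend (0 of 14878 genes) and 0 with the GC trend (0 of 14710). With genotype alone in the model they became 6 (1964 of 14878 genes). Leaving out 1 library also meant leaving out the age term, which 3 libraries cannot hold, and assumed that the lone library of an arm varies like the others, and 2 to 7 genes were then called, so that both changes enter these counts. Without the 2-month control or without the 6-month csPIMT-/- library, 2 were called, Cx3cl1 and Cxcl14, and without the 6-month control 3, Ccl6, Ccl8 and Cxcl14. Genes with under 100 reads rest on few counts, and their intervals are wide. TMM and the pairwise median of ratios reversed no log2 ratio of a named gene.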
